A study of Mus musculus with 2 samples.

Results

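The neural miRNAs examined here are 9 precursor genes whose mature products are known from neurons: Mir137, Mir132, Mir212, Mir128-1, Mir128-2, Mir138-1, Mir138-2, Mir9-2 and Mir9-3. They were chosen by name, and their Ensembl identifiers were matched to GENCODE symbols, which found all 9 among the 1973 genes of the deposited tables. Mir137, Mir132 and Mir212 have single-copy precursors, and the other 6 belong to families in which several loci give the same mature miRNA. The tissue was embryonic stomach of mouse strain B6NCrl at 14.5 days of development, with no treatment or mutation named in the labels. RNA under 30 nt was sequenced in 2 biological replicates of this 1 group. The labels call each sample one stomach of one embryo but give both sexes for it, so a pool cannot be told apart from a single animal. No condition was varied, and the only comparisons are between genes and between the replicates.

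As background, the stomach wall receives its nerve cells from neural crest cells that migrate into the gut and form the enteric nervous system, and extrinsic vagal fibres also reach it. A miRNA is cut from a hairpin precursor as a 5p and a 3p arm, and the arm that is loaded into the silencing complex finds targets mainly through its seed, bases 2 to 8 from the 5′ end. miR-137 is known for its part in the differentiation and maturation of neurons, miR-132 and miR-212 for activity-dependent growth of dendrites, miR-128 for control of neuronal excitability, miR-138 for dendritic spine size, and miR-9 for neurogenesis. None of these miRNAs is restricted to enteric neurons, and miR-132 is also known from endothelial and immune cells.

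The mature sequences decide which reads can be assigned to one locus. All 9 genes matched a RefSeq hairpin (GRCm38.p6), which together carry 14 distinct mature miRNAs of 21 to 23 nt. Of these 14, 10 occur in no precursor at another locus among the 2202 miRNA precursors of GENCODE M21, and 4 occur in more than one. The arms below are shown because they separate the loci that can be told apart from those that cannot. They are written 5′ to 3′ with the seed in capitals.
miR-137-3p: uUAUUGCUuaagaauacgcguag
miR-132-3p: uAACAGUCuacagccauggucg
miR-212-3p: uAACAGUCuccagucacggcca
miR-128-3p: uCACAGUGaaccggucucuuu
miR-128-1-5p: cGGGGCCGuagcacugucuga
miR-128-2-5p: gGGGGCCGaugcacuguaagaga
miR-138-5p: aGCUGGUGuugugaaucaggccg
miR-138-1-3p: cGGCUACUucacaacaccaggg
miR-138-2-3p: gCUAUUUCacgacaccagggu
miR-9-5p: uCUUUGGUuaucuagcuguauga
miR-9-3p: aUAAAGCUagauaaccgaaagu

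miR-132-3p and miR-212-3p carry the same seed and are identical at 17 of 22 positions counted from the 5′ end, the first 9 of them without a break. No other of the 1679 mature miRNAs in the RefSeq table has that seed. The 5p arms of Mir128-1 and Mir128-2 also share a seed and match at 16 of 21 positions. The seed of miR-137-3p was found in no other mature miRNA of the table. miR-128-3p is held by both Mir128 precursors and miR-138-5p by both Mir138 precursors, while the opposite arm of each of these 4 precursors is its own. Both arms of Mir9-2 and Mir9-3 are identical in all copies.

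**Figure D1:**
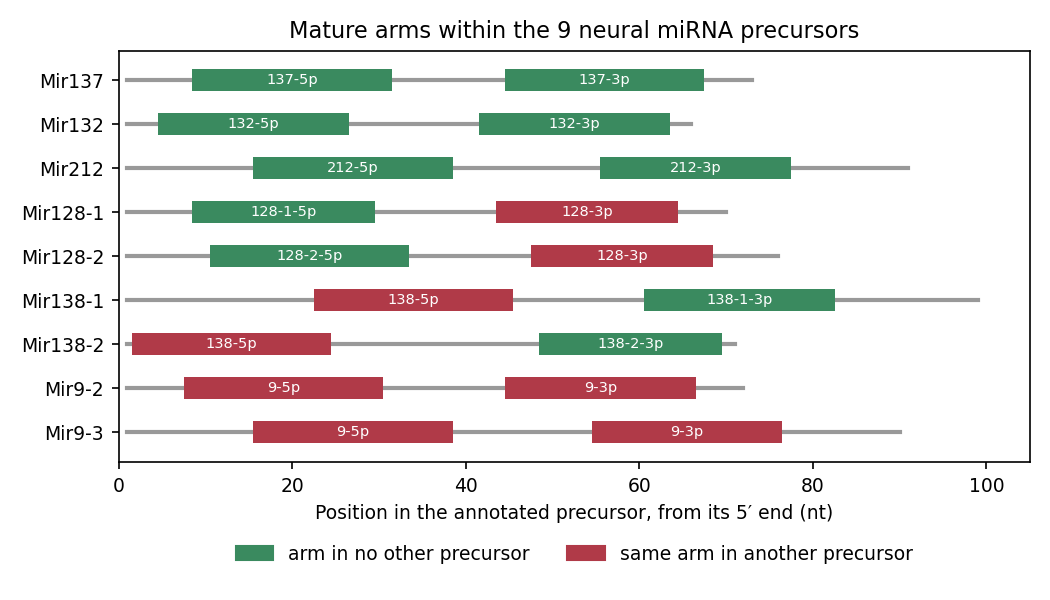
Position of the mature arms (boxes) along each annotated precursor (grey line), in nt from the precursor's 5′ end. Both arms of Mir137, Mir132 and Mir212 occur in no precursor at another locus, 1 of 2 arms is shared in the Mir128 and Mir138 precursors, and both arms are shared in Mir9-2 and Mir9-3.

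The longest stretch that a single-copy precursor has in common with any other locus is 11 nt for Mir137, 11 nt for Mir132 and 12 nt for Mir212. It is 23 nt between the Mir128 precursors and 24 nt between the Mir138 precursors. Mir9-2 shares 33 nt with Mir9-1, and 25 of its 53 windows of 20 nt are its own, against 58 of 71 for Mir9-3. Reads that map to several places stand on a line of their own in the tables and belong to no gene. That line held 2437052 reads in replicate 1 and 2263676 in replicate 2, equal to 48.7% and 48.4% of the gene counts. How many of them came from miR-9, miR-128-3p or miR-138-5p was not tested, so the levels of the 6 multi-copy genes are uncertain and may be too low.

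The depth over all genes was 5004548 counts for replicate 1 and 4679914 for replicate 2, and levels are given as counts per 1000000 gene counts (CPM). Detection required at least 10 counts in each library, which 361 of the 1973 genes reached. Markers of a stomach wall were present. The smooth muscle list (Mir143, Mir145a) totalled 155329 ± 12469 CPM (SD, n = 2), the epithelial Mir200 family 41460.4 ± 30.7 CPM, and Mir126a of endothelium 20389 ± 1732 CPM. Intervals below are exact Clopper-Pearson 95% intervals. They and the limits for counts of 0 cover counting error only, since reads carry no molecular identifiers.

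Together the 9 neural genes held 2271 CPM in replicate 1 and 2514 CPM in replicate 2, or 2393 ± 172 CPM (SD, n = 2), which is 0.239% of gene counts. Of the 9, 7 were detected, all 3 single-copy genes and 4 of the 6 multi-copy genes. Mir137 alone made up 73.5% of the neural counts in replicate 1 and 72.9% in replicate 2. The neural total leaves out reads of the 6 multi-copy genes that map to several places. This share may thus be too high. Marker genes with several copies can lack such reads too, so the marker folds below are uncertain on both sides. The smooth muscle total was 72.3-fold and 58.3-fold the neural total in the replicates, and the epithelial total 18.2-fold and 16.5-fold. Mir126a was 9.52-fold and 7.62-fold, and the mesenchymal list (Mir214 and the Mir199 genes) 6.44-fold and 6.31-fold. Mir214 alone held 14616.1 CPM of the mesenchymal mean total of 15246.5 CPM, so this fold says little about the Mir199 genes. The total of Mir375 and the Mir7 genes, listed as endocrine, was 2.67-fold and 2.11-fold. Other lists were lower than the neural total. The leukocyte list (Mir223, Mir155, Mir150) stood at 0.247-fold and 0.238-fold, without its member Mir142, which was not counted under that symbol. Mir142b, outside the list, had 496 CPM in replicate 1 and 447 CPM in replicate 2. As counted, the erythroid, striated muscle, liver and glial lists were lower still. In the striated muscle list, Mir133a-1 and Mir133a-2 had 0 counts in both libraries and Mir1a-2 was not counted. The striated muscle total thus gives no level for these miRNAs. In bulk tissue, a small number of cells of a type and a small amount of RNA per cell cannot be told apart.

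Mir137 was counted 8353 times in replicate 1 and 8572 times in replicate 2. These counts correspond to 1669 CPM (1634 to 1705) and 1832 CPM (1793 to 1871), or 1750.4 ± 115 CPM (SD, n = 2), the 77th highest mean of all genes. The gene (ENSMUSG00000065569.1) lies on the plus strand of chromosome 3 at 118433857 to 118433929 (GRCm38, mm10, as are all coordinates here), overlapping exons of both transcripts of the noncoding gene Gm26871 that span it. The genes next above it in mean level were Mir140, at 1815 CPM, and Mir1983, at 1771 CPM, and those next below were Mir139, at 1697 CPM, and Mir337, at 1696 CPM. The library values of Mir137 overlapped those of all 4. Compared within each library, Mir137 was above Mir139, at 1612 CPM in replicate 1 and 1782 CPM in replicate 2. Its order relative to the others changed between the libraries. With 2 libraries of 1 group there is no pattern over conditions by which to rank genes as similar to it.

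Mir137 exceeded the sum of the other 8 neural genes 2.77-fold in replicate 1 (95% interval 2.66 to 2.89) and 2.68-fold in replicate 2 (2.58 to 2.80). The mean log2 ratio was 1.45 ± 0.03 (SD, n = 2). The excess was in the same direction in both libraries, and with 2 libraries no exact test over samples can reach significance. The other 8 genes include the 6 multi-copy genes, whose shared reads are left out of this ratio.

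**Figure D2:**
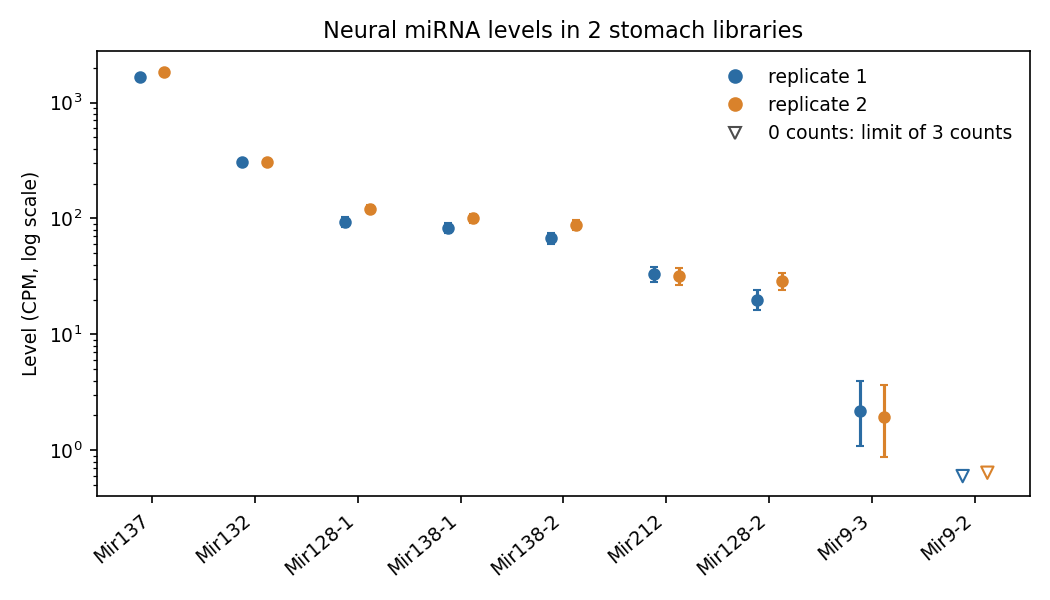
Level of each neural miRNA gene in CPM (log axis) in replicate 1 and replicate 2, with exact 95% intervals for counting error. Open triangles mark the limit of 3 counts for Mir9-2, which had 0 counts, and the levels fall from 1750.4 CPM for Mir137 to 2.06 CPM for Mir9-3 in the same order in both libraries.

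Mir132 had 1522 counts in replicate 1 and 1447 in replicate 2, which is 304 CPM (289 to 319.8) and 309 CPM (293 to 326). Its neighbour Mir212 had 165 and 149 counts, at 33.0 CPM (28.1 to 38.4) and 31.8 CPM (26.9 to 37.4). Both genes were thus nearly level between the libraries, and their means were 307 ± 3.59 CPM and 32.4 ± 0.80 CPM (SD, n = 2). They lie on the plus strand of chromosome 11, Mir212 (ENSMUSG00000065590.1) at 75173388 to 75173478 and Mir132 (ENSMUSG00000065537.1) at 75173682 to 75173747. Only 203 nt separate them, and both sit in an intron of the noncoding transcript 1700016P03Rik, from which they are known to be processed together.

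Mir132 was nevertheless counted 9.22-fold more often than Mir212 in replicate 1 (7.85 to 10.9) and 9.71-fold more often in replicate 2 (8.20 to 11.6). The mean log2 ratio was 3.24 ± 0.05 (SD, n = 2), far larger than the spread between libraries. A small RNA read covers a mature miRNA from end to end, so counts were not divided by length. Divided by the length of the annotated precursor (66 nt for Mir132 and 91 nt for Mir212), the log2 ratio was 3.71. Of the 2 carriers of the shared 3p seed, Mir132 therefore supplied most of the counts. The tables do not split a gene's counts by arm, and adapter ligation, which can favour some sequences, affects both libraries alike and would not show in the SD.

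Mir128-1 (ENSMUSG00000065520.1) lies in an intron of the protein-coding gene R3hdm1 on the plus strand of chromosome 1 (128202361 to 128202430). It had 467 and 567 counts in replicates 1 and 2, or 93.3 CPM (85.0 to 102) and 121 CPM (111 to 132). Mir128-2 (ENSMUSG00000065441.1) lies in an intron of Arpp21, a gene expressed in neurons and thymocytes, on the minus strand of chromosome 9 (112118636 to 112118711). Its counts were 100 and 135, or 19.98 CPM (16.3 to 24.3) and 28.8 CPM (24.2 to 34.1). Both copies were higher in replicate 2 than in replicate 1. Counts assigned to Mir128-1 exceeded those of Mir128-2 4.67-fold in replicate 1 (3.76 to 5.86) and 4.20-fold in replicate 2 (3.48 to 5.11), a mean log2 ratio of 2.15 ± 0.11 (SD, n = 2). This ratio compares reads that could be placed at one locus, which leaves out reads of miR-128-3p that fit both.

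Mir138-1 (ENSMUSG00000065414.1), on the plus strand of chromosome 9 at 122682876 to 122682974 within an exon of the transcribed pseudogene Gm47135, had 412 and 472 counts. Its levels were 82.3 CPM (74.6 to 90.7) and 101 CPM (92.0 to 110.4). Mir138-2 (ENSMUSG00000065512.2), on the plus strand of chromosome 8 at 94324311 to 94324381 within an exon of the lincRNA C78859, had 337 and 414 counts. Its levels were 67.3 CPM (60.3 to 74.9) and 88.5 CPM (80.1 to 97.4), and its range over the libraries overlapped that of Mir138-1. The ratio of Mir138-1 to Mir138-2 was 1.22 in replicate 1 (1.06 to 1.42) and 1.14 in replicate 2 (0.997 to 1.30), a mean log2 ratio of 0.24 ± 0.07 (SD, n = 2). Mir138-1 was higher in both libraries, but the interval of replicate 2 includes equal counts, so the order of these copies is not settled. With counts divided by precursor length, which was not the main measure for the reason given for Mir132, the log2 ratio turned to -0.24.

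Mir9-3 (ENSMUSG00000093238.1), in an intron of its host transcript Mir9-3hg on the plus strand of chromosome 7 (79505264 to 79505353), had 11 counts in replicate 1 and 9 in replicate 2. That is 2.20 CPM (1.10 to 3.93) and 1.92 CPM (0.879 to 3.65), just below the threshold for detection in replicate 2. Mir9-2 (ENSMUSG00000065424.1) lies on the plus strand of chromosome 13 (83738814 to 83738885), within the lincRNA C130071C03Rik, where it overlaps an exon of 1 transcript and an intron of another, and had 0 counts in both libraries. For reads that map to this locus alone, the limit of 3 counts that goes with a count of 0 stood at 0.599 CPM in replicate 1 and at 0.641 CPM in replicate 2. Mir9-1, the third copy, is not among the genes counted here. Its position on chromosome 3 (88215598 to 88215686, plus strand) is covered by Gm25641, which is annotated on the minus strand. Gm25641 had 0 counts on its own strand and 4 and 1 counts on the strand of Mir9-1. Few reads were thus assigned to any of the 3 loci, and since both mature arms are identical in all 3, the level of miR-9 itself was not measurable from these tables.

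In descending order of mean level the genes were Mir137, Mir132, Mir128-1, Mir138-1, Mir138-2, Mir212, Mir128-2, Mir9-3 and Mir9-2, the same order in both libraries. Neighbours in this order did not overlap between libraries, except for Mir128-1 with Mir138-1 and Mir138-1 with Mir138-2. The counting intervals of Mir212 and Mir128-2 overlapped in replicate 2. The single-copy genes totalled 2089 ± 118 CPM and the multi-copy genes 303 ± 53.8 CPM (SD, n = 2), a 7.57-fold difference in replicate 1 and 6.37-fold in replicate 2. The mean log2 ratio of 2.80 ± 0.18 rests on Mir137 and on reads placed at one locus. Over the whole table, 929 of the 1894 genes with a symbol share 20 nt or more with another locus. Of these, 82 (8.83%) were detected, against 279 of the other 965 (28.9%). Whether left-out reads or unexpressed genes account for this difference was not tested. All counts of the 9 neural genes lay on their annotated strand, with 0 on the opposite strand in both libraries.

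**Figure D3:**
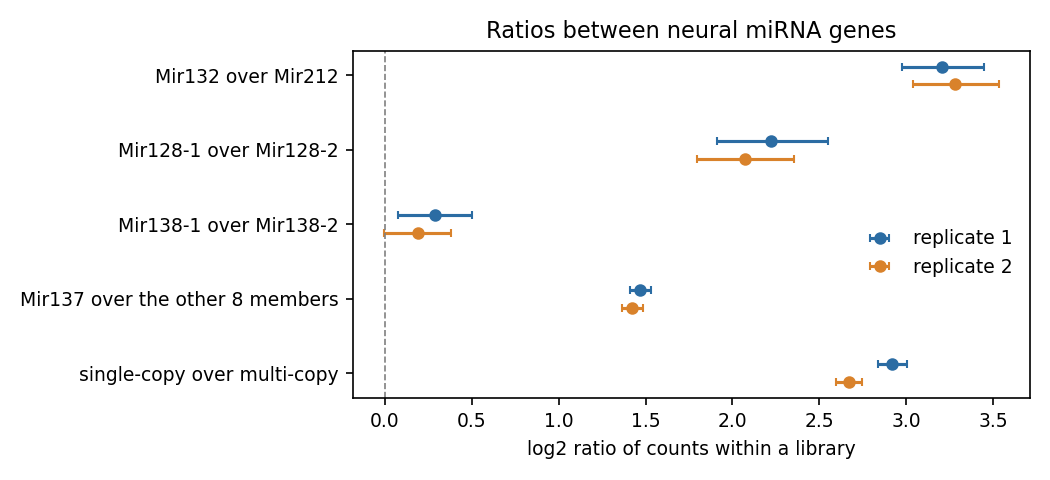
Log2 ratio of counts between neural miRNA genes within replicate 1 and replicate 2, with exact 95% intervals for counting error. Ratios lie between 1.42 and 3.28 in both libraries except Mir138-1 over Mir138-2, at 0.29 and 0.19, where the interval of replicate 2 reaches below 0.

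The replicates were then compared gene by gene, to ask where the neural genes differed by more than counting noise. An exact conditional binomial test, two-sided with Benjamini-Hochberg adjustment over all 361 detected genes, compares these libraries and not conditions. At an adjusted p under 0.05, 5 of the 7 detected neural genes differed, all 5 higher in replicate 2. Over all detected genes the test called 152, a share of 42.1%, with 24.7% higher in replicate 2 and 17.5% higher in replicate 1. None of the 7 also reached an absolute log2 ratio of 1, as 1.11% of detected genes did. The median log2 ratio of replicate 2 over replicate 1 was 0.29 for the 7 neural genes and 0.04 for all detected genes.

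The 4 detected multi-copy genes had the larger ratios. Mir128-2 was 1.44-fold higher in replicate 2, a log2 ratio of 0.53 (0.15 to 0.92, exact binomial adjusted p = 0.0158). Mir138-2 had a log2 ratio of 0.39 (0.18 to 0.61, adjusted p = 6.41e-04 by the exact test), Mir128-1 of 0.38 (0.20 to 0.56, adjusted p = 1.04e-04 by the exact test) and Mir138-1 of 0.29 (0.10 to 0.49, adjusted p = 0.00751 by the exact test). Among single-copy genes, Mir137 had a log2 ratio of 0.13 (0.09 to 0.18, adjusted p = 7.59e-09 by the exact test), the smallest of the called differences and the one with the most counts behind it. Mir132, at 0.02 (-0.08 to 0.13), and Mir212, at -0.05 (-0.38 to 0.28), did not pass the test, with adjusted p = 0.786 and 0.861 by the exact test. Whether the multi-copy and single-copy genes differ in this respect was not tested.

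These calls depended on the scaling of the libraries. With DESeq2's size factors 3 neural genes were called in place of 5, since Mir137 had an adjusted p of 0.095 and Mir138-1 of 0.0805 in the exact test. The direction for Mir132 also turned with each other scaling. Over all detected genes, 89 of 152 calls (58.6%) were higher in replicate 2, against 74 of 168 (44.0%) with edgeR's TMM factors, 74 of 166 (44.6%) with totals without the 5 most abundant genes and 58 of 173 (33.5%) with size factors. The collection day differed between the replicates as well, so day and animal cannot be told apart.

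**Figure D4:**
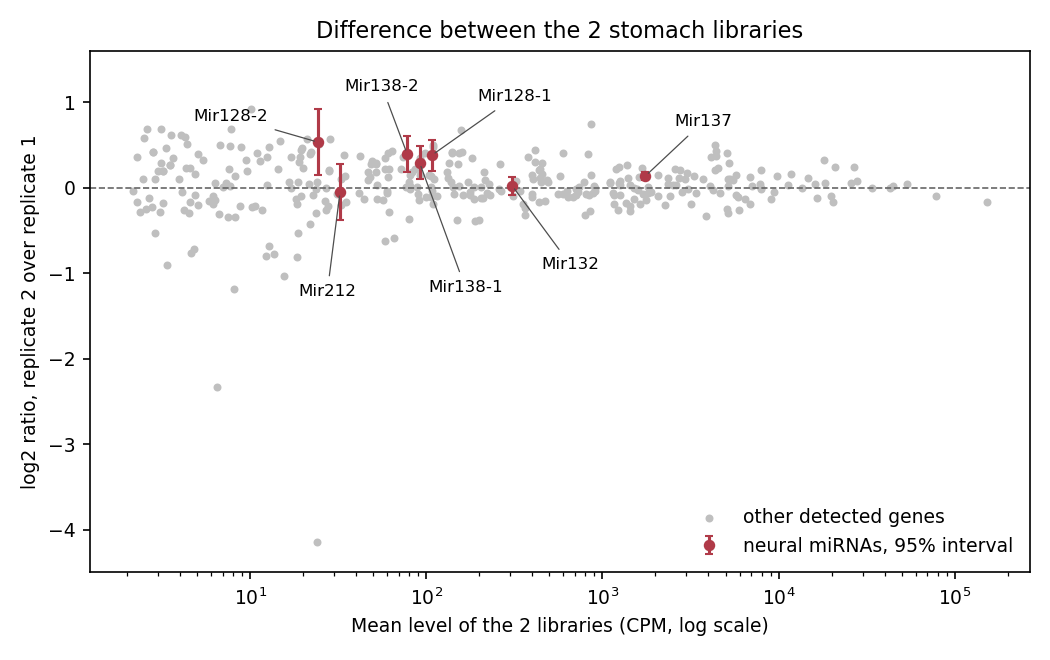
Log2 ratio of replicate 2 over replicate 1 against the mean level in CPM (log axis) for the 361 detected genes, with the 7 detected neural genes in red and their exact 95% intervals. The neural genes lie between -0.05 and 0.53, with a median of 0.29 against 0.04 for all detected genes. The other genes range from -4.14, for Mir802, to 0.92.

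A wider list of 21 neuronal and glial miRNAs was read beside the 9 genes. It comprised 18 genes known from neurons and 3 known from glia of the central nervous system, and 20 of the 21 were counted and 17 detected. The neuronal genes totalled 2063 ± 87.1 CPM and the glial genes 131 ± 8.52 CPM (SD, n = 2). Of the 20 counted genes, 11 share 20 nt or more with another locus, and their values cover only reads placed at one locus. Among reads so placed, no counted gene of the list exceeded Mir137. The highest was Mir134, known for limiting dendritic spines, at 1440 CPM in replicate 1 and 1274 CPM in replicate 2. Mir134 and Mir485 belong to the imprinted Dlk1-Dio3 cluster, which is also active in mesenchymal tissues of the embryo, so their level cannot be assigned to nerve cells. In bulk tissue the levels of the other genes, Mir137 among them, cannot be assigned to a cell type either.

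Mir485 had 225 and 232 CPM, and Mir330 199 and 225 CPM. Mir338, known from oligodendrocytes and other glia, had 102 and 112 CPM, close to Mir128-1. Mir218-2, carried in an intron of the axon guidance gene Slit3 and known from motor neurons, had 78.1 and 81.8 CPM, and Mir383 had 57.9 and 63.2 CPM. The other 11 detected genes had means of 23.6 CPM or less, among them Mir219a-1, an oligodendrocyte miRNA, at 17.1 CPM in mean. Counts of Mir137 were 13.4-fold those of the 3 glial genes together in each library. Of these 3, Mir219a-1 and Mir219a-2 share 22 nt with other loci, so multi-mapping reads of these genes are missing from the sum.

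The copies of miR-124, the most abundant neuronal miRNA of the brain, were almost without counts. Mir124a-1 and Mir124a-2 had 0 counts in both libraries, and Mir124a-3 had 1 count in replicate 1 and 0 in replicate 2. Each of the 3 precursors shares 32 nt with another, so reads of the mature miRNA can map to several places, and these values give no level for miR-124. Of the 17 detected genes, 4 differed between the libraries (23.5%, against 42.1% of all detected genes), 2 in each direction, with a median log2 ratio of 0.07 against 0.04. Mir346 and Mir330 were higher in replicate 2, with log2 ratios of 0.57 and 0.18, and Mir129-2 and Mir134 higher in replicate 1, with log2 ratios of -0.80 and -0.18 (exact binomial test, adjusted as above). With TMM factors, size factors or totals without the 5 most abundant genes, Mir330 was no longer called and the other 3 were. The median was 0.01, -0.02 and 0.02 in these settings.

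**Figure D5:**
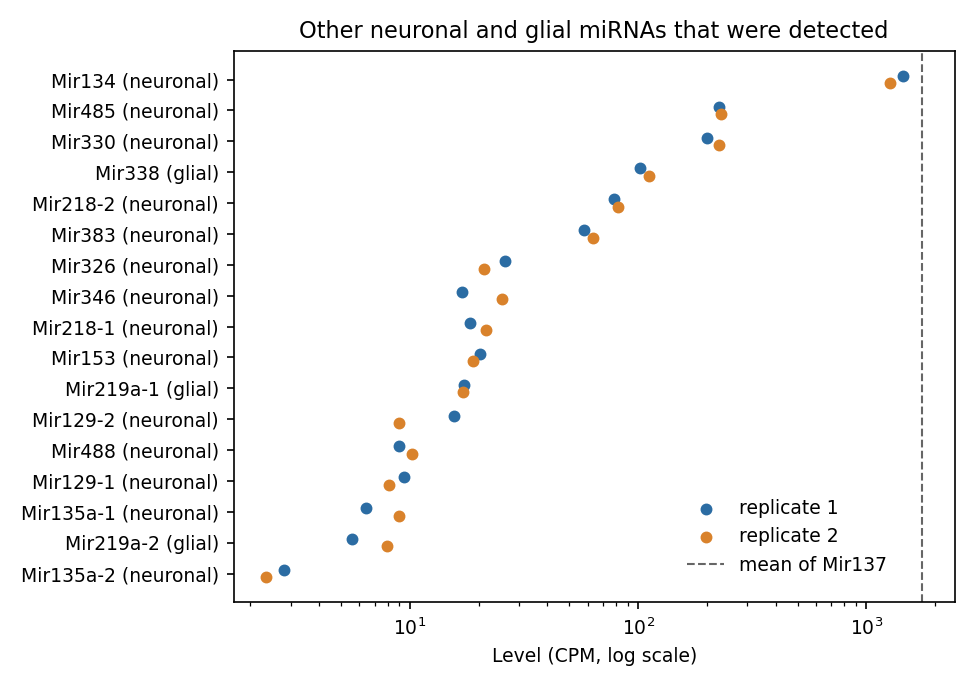
Level in CPM (log axis) of the 17 detected genes of the wider neuronal and glial list in replicate 1 and replicate 2, with the mean of Mir137 as a dashed line. Mir134 comes nearest to the line at 1440 and 1274 CPM, and the remaining genes lie at 232 CPM or lower.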

How the data were processed

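MicroRNA sequencing libraries of 2 stomach samples were used. The deposited unit is counts, as whole numbers per gene, in 1 table per library. Per the text deposited with the tables, they rest on mm10 and GENCODE M4. The aligner is not given in the sources used here, nor is the counting program. The first count column covers both strands, and the other count columns add up to it for all 1973 genes. Symbols, coordinates and hosts came from GENCODE M21 (1894 identifiers matched), mature sequences from RefSeq (GRCm38.p6). Lines that name no gene were left out of totals. CPM, ratios, exact intervals and exact binomial tests were computed with Python 3.11.15 and scipy 1.17.1, and scaling alternatives with edgeR 4.0.16 (TMM) and DESeq2 1.42.0 (size factors). A quasi-likelihood fit has no contrast in 1 group. On simulated libraries of 361 genes, the binomial test found 88.6% of 2-fold changes and called 2.98% of unchanged genes. The simulated counts held counting noise only, with no spread between animals. They check the computation and give no error rate for the real replicates. The genes and lists were chosen with earlier results of these data known. Named genes are the 9 members, up to 6 detected genes of highest level in the wider list, marker totals, and the 2 genes on either side of Mir137 in level. Mir219a-1, the Mir124a genes, Mir346, Mir129-2, Gm25641, Mir142b, the Mir133a genes and Mir802 were named after their values were seen. Mir142 and Mir1a-2 were named because they were not counted.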

Additional observations from a re-analysis of the deposited data

How the results depend on the processing

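Levels depend on the denominator. With totals without the 5 most abundant genes the neural total was 3806 CPM and Mir137 2784 CPM, and with all mapped reads as the denominator they were 1566 and 1146 CPM. Without one replicate the neural total was 2271 to 2514 CPM and Mir137 1669 to 1832 CPM. Counts divided by precursor length gave a log2 ratio of 3.71 for Mir132 over Mir212, 2.27 for Mir128-1 over Mir128-2 and -0.24 for Mir138-1 over Mir138-2, the last one reversed. The own-strand column changed none of the 5 ratios. The number of detected neural genes was 8 with a minimum of 1 count and 7 with a minimum of 30. The number that differed between libraries was 3 with DESeq2 size factors and 5 in the other settings run. The log2 ratio between libraries for Mir132 became -0.029 with TMM factors, -0.066 with size factors and -0.024 without the 5 most abundant genes, and did not pass the test in any of them. Depth limits Mir9-3 and Mir9-2, with 11 counts or fewer per library, and the multi-copy genes lack the reads that map to several places.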
